A study of Drosophila sechellia and Drosophila melanogaster and Drosophila simulans with 18 samples.

Results

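RNA-seq of whole adult *D. simulans* females was used to ask which genes differ in expression after feeding on hexanoic acid (HA). The genes described are the 9185 of the 15372 in the *D. simulans* table that had at least 1 FPKM (read fragments scaled by gene length and by depth) on both diets; the tables of the 3 species of the series hold 50294 genes in all. The HA group was flies of strain 14021-0251.195, 0 to 3 days after eclosion, kept for 24 h on instant food with 0.23% HA. The control group was flies of the same strain, age and sex kept for 24 h on the same instant food without HA. All had been reared on cornmeal medium at 20 °C with 16 h of light and 8 h of dark. Each diet had 3 libraries of 10 pooled whole flies, and only 1 value per gene and diet, pooled over the 3 libraries, was available. The pooled values carry no spread between libraries, and the read totals that the study states for its libraries were not used. No SD or interval can therefore be given, and no difference between the diets was tested. In whole flies, fewer cells of a type and less RNA per cell cannot be told apart. *D. melanogaster* and *D. sechellia* females, of 1 strain each, had the same diets, age, exposure and number of libraries. Species and strain cannot be told apart in comparisons with them. For *D. sechellia*, which the study sequenced with longer reads, read length cannot be told apart either.

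HA is a medium-chain fatty acid in the ripe fruit of *Morinda citrifolia*, the host of *D. sechellia*. It is toxic to *D. simulans*, a generalist that feeds on many fermenting fruits. In an adult female most RNA comes from the ovary, the fat body, the gut and muscle, so eggshell, yolk, digestive and contractile genes make up much of the abundant RNA, while genes of the antenna and of sensory organs are diluted. Insects meet a plant toxin at the mouth and antenna (odorant-binding proteins and receptors), in the gut (digestive and peptidoglycan-cutting enzymes) and in fat body and gut cells (detoxification, metal and oxidant handling).

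Change is given as the log2 ratio of HA to control after 1 FPKM was added to each value, minus the median of this ratio over the 9185 genes. That median was -0.11, so before it was subtracted the typical gene was lower on HA food. Most genes differed little between the diets: 6524 genes (71.0%) had a change within 0.25 of 0 on the log2 scale, and the central 90% of genes lay between -0.48 and 0.37. A gene is called higher or lower here when its change is at least 1.5-fold, which is 0.58 on the log2 scale and is a limit of size and not a test. By this limit 123 genes were higher on HA food (1.34% of genes) and 253 were lower (2.75%). Without subtraction of the median the counts were 79 higher and 464 lower, so the share of higher genes among the calls was 32.7% with and 14.5% without it. At 2-fold, 23 genes were higher (0.25%) and 27 lower (0.294%).

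The *D. simulans* table names 552 genes by a symbol, and 120 of these are noncoding RNAs, mostly microRNAs. Of the 432 protein-coding symbols, 314 passed the FPKM minimum and 118 did not. The gene nearest above the minimum was bap, with 1.80 FPKM on HA food and 1.01 FPKM on control food, and the nearest below it was sog, with 1.52 and 0.999 FPKM on HA and control food. The median change of the 314 genes was 0.03. Of these, 15 were at least 1.5-fold higher (4.78%, against 1.34% of all genes) and 8 at least 1.5-fold lower (2.55%, against 2.75%). At 2-fold, 6 were higher and none lower, where 0.25% of all genes were higher and 0.294% lower. The symbols are those of genes studied one by one, such as immune and odorant-binding genes, so they are no random sample of the genome.

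**Figure D1:**
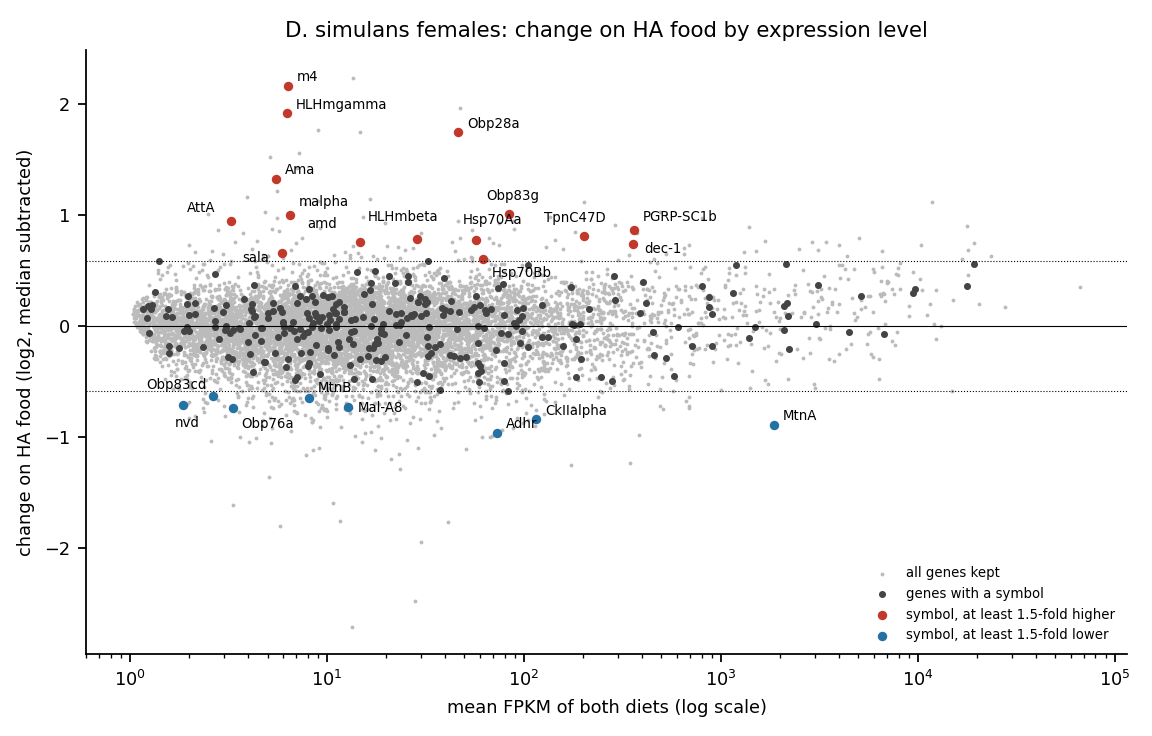
Change on HA food (log2, median subtracted) of the 9185 *D. simulans* genes kept, against the mean FPKM of both diets on a log scale. Dark points are the 314 genes with a symbol, red and blue points those at least 1.5-fold higher (15) or lower (8), and dotted lines mark 1.5-fold. The red points reach 2.17 (m4) and the blue ones -0.96 (Adhr).

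The highest changes among named genes were those of m4 and HLHmgamma, members of the Enhancer of split complex, E(spl), a run of small genes that Notch signalling switches on. Its basic helix-loop-helix proteins (HLH genes and the gene listed as E(spl)) repress neural and other differentiation genes, and its Bearded-type proteins (malpha, m4 and m6) modulate the Notch ligand. In the *D. simulans* genome ASM75419v3 the 11 symbols lie on chromosome 3R between 21320074 and 21363704, a run of 43631 bases with 1 other gene inside it. Of the 11, 7 passed the FPKM minimum, with a median change of 0.78, and 4 of the 7 were at least 1.5-fold higher and none lower, where 1.34% of all genes were higher and 2.75% lower. The median over all 9185 genes is 0 by construction. From the same libraries, the study reports Notch signalling genes as enriched among those upregulated in *D. simulans*. The list was chosen with earlier results of these data known, so its share of higher genes is no independent result. With a pseudocount of 5 FPKM the changes of m4 and HLHmgamma were 1.28 and 1.16, below that of the odorant-binding gene Obp28a (1.56), and at a minimum of 5 FPKM on both diets m4, HLHmgamma and malpha are left out and no list median was taken.

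Of the Bearded-type genes, m4 (3R:21346716-21347330) had 10.8 FPKM on HA food and 1.83 FPKM on control food, a change of 2.17 or 4.49-fold. The gene malpha (3R:21333516-21334199) had 8.79 FPKM on HA food and 4.25 FPKM on control food, a change of 1.004. The third, m6, was at 0.021 FPKM on HA food and 0.20 FPKM on control food, below the minimum on both. The Bearded-type genes that were expressed were thus higher on HA food, and the one at the floor was not.

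Among the repressors, HLHmgamma (3R:21322449-21323184) had 10.4 FPKM on HA food and 2.24 FPKM on control food, a change of 1.92 or 3.78-fold. HLHmbeta, the most abundant of them, had 35.5 FPKM on HA food and 21.8 FPKM on control food (0.78). HLHm7 was nearly level, with 1.60 and 1.51 FPKM on HA and control food (0.15), and HLHm3 was below 0, with 3.31 FPKM on HA food against 5.17 FPKM on control food (-0.41). The repressor group therefore held values on both sides of 0.

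Below the minimum on at least one diet, HLHm5 had 3.18 FPKM on HA food and 0.45 FPKM on control food, the gene listed as E(spl) had 0.96 and 0.28 FPKM on HA and control food, and HLHmdelta had 0.38 and 0.22 FPKM. All of these had more FPKM on HA food. The most abundant gene of the run, m1, which encodes a protein with the fold of protease inhibitors and not a Notch repressor, went the opposite way, with 63.2 FPKM on HA food and 96.5 FPKM on control food (-0.50). Within 20000 bases on either side of the run 10 genes passed the minimum, with changes between -0.31 and 0.69 and a median of -0.03.

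**Figure D2:**
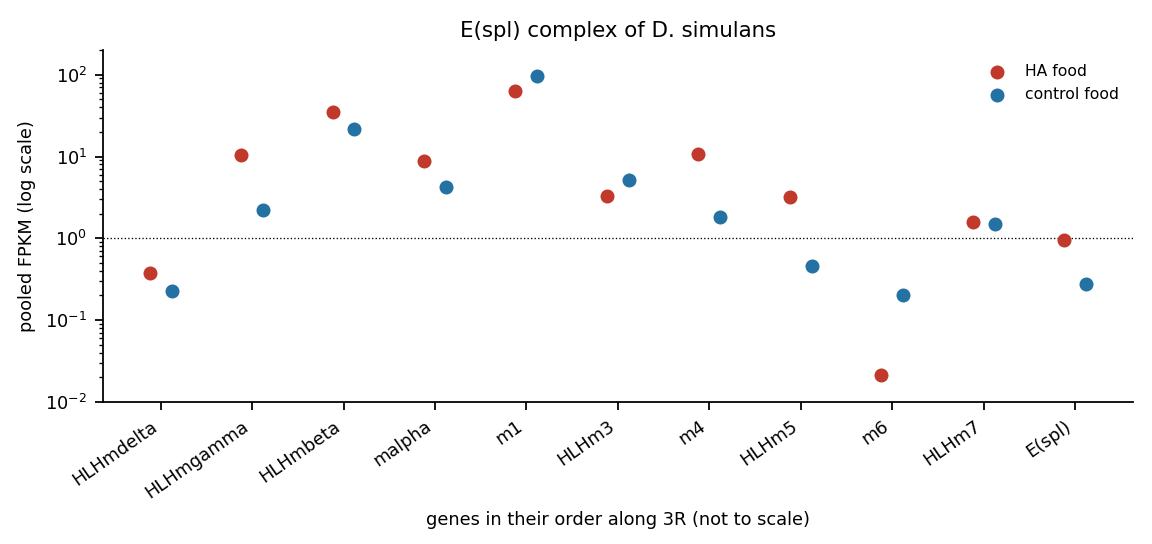
Pooled FPKM on a log scale of the 11 E(spl) complex genes of *D. simulans* on HA food (red) and control food (blue), in their order along 3R, with a dotted line at the minimum of 1 FPKM. The HA value lies above the control value in 8 of the 11 genes and below it for m1, HLHm3 and m6.

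The upstream genes of the pathway in the table were close to level. The receptor N had 5.91 FPKM on HA food and 5.62 FPKM on control food (0.17), its ligand Dl 2.57 and 2.87 FPKM (-0.01), and the DNA-binding partner Su(H) 1.33 and 1.84 FPKM (-0.18). None of the 3 was past 1.5-fold, where 1.34% of all genes were higher and 2.75% lower. In *D. melanogaster*, which was normalized in its own run, m4 had 0.97 FPKM on HA food and 1.02 FPKM on control food and HLHmgamma 0.59 and 1.16 FPKM, so that neither passed the minimum there. Of the 5 E(spl) genes with a value in *D. melanogaster*, none was past 1.5-fold in either direction, where 0.866% of all its genes were higher and 4.04% lower. Their median change was -0.05. For HLHmbeta the *D. melanogaster* values were 12.5 FPKM on HA food and 9.05 FPKM on control food, and for malpha 1.94 and 2.28 FPKM. The difference between the species could not be tested. *D. sechellia* was not compared for this complex. In that species the study reports E(spl)mgamma-HLH, the gene named HLHmgamma here, as upregulated on HA food.

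Odorant-binding proteins, small secreted proteins that carry odorants through the fluid around sensory neurons, form the largest named family. Of 49 symbols, 27 passed the minimum and 10 of the other 22 were listed at 0 on both diets. The median change of the 27 was -0.20, with 10 genes above 0 and 17 below, and 2 genes were past 1.5-fold in each direction (1.34% of all genes were higher and 2.75% lower). With no minimum, which still left out genes at 0 on both diets, the median was -0.02. Obp28a (2L:7250847-7251604), a major protein of the antenna, had 70.6 FPKM on HA food and 21.98 FPKM on control food, a change of 1.75 or 3.35-fold. Obp83g (3R:1851728-1852355) had 110 FPKM on HA food and 58.0 FPKM on control food (1.01). The neighbours of Obp83g were below 0: Obp83cd had 1.74 FPKM on HA food and 3.55 FPKM on control food (-0.63), and Obp83ef, at the same locus in the table as Obp83cd, had 7.37 and 11.2 FPKM (-0.43).

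Obp76a (LUSH), the carrier of the male pheromone, had 2.10 FPKM on HA food and 4.55 FPKM on control food, a change of -0.74, at a locus that the table gives to 4 genes. The Obp57 genes that passed the minimum were all lower without reaching 1.5-fold: Obp57a had 22.5 and 34.8 FPKM on HA and control food (-0.50), Obp57b 13.5 and 20.6 FPKM (-0.47) and Obp57c 40.9 and 54.1 FPKM (-0.29). Obp57d and Obp57e, which affect host choice in *D. sechellia*, stayed under 0.27 FPKM on both diets. Obp56h had 46.7 FPKM on HA food and 71.7 FPKM on control food (-0.50). The genes Obp19a, Obp19c and Obp19d were higher, by 0.50, 0.40 and 0.55, without reaching 1.5-fold. The most abundant member was Obp99c, with 1984 FPKM on HA food and 2454 FPKM on control food (-0.20), followed by Obp99a, which was level at 909 and 907 FPKM. The family thus had no common direction. In *D. melanogaster*, 20 of 26 members with a value were below 0, 4 of them at least 1.5-fold lower, and none at least 1.5-fold higher, where 4.04% of all its genes were lower and 0.866% higher (median -0.24).

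**Figure D3:**
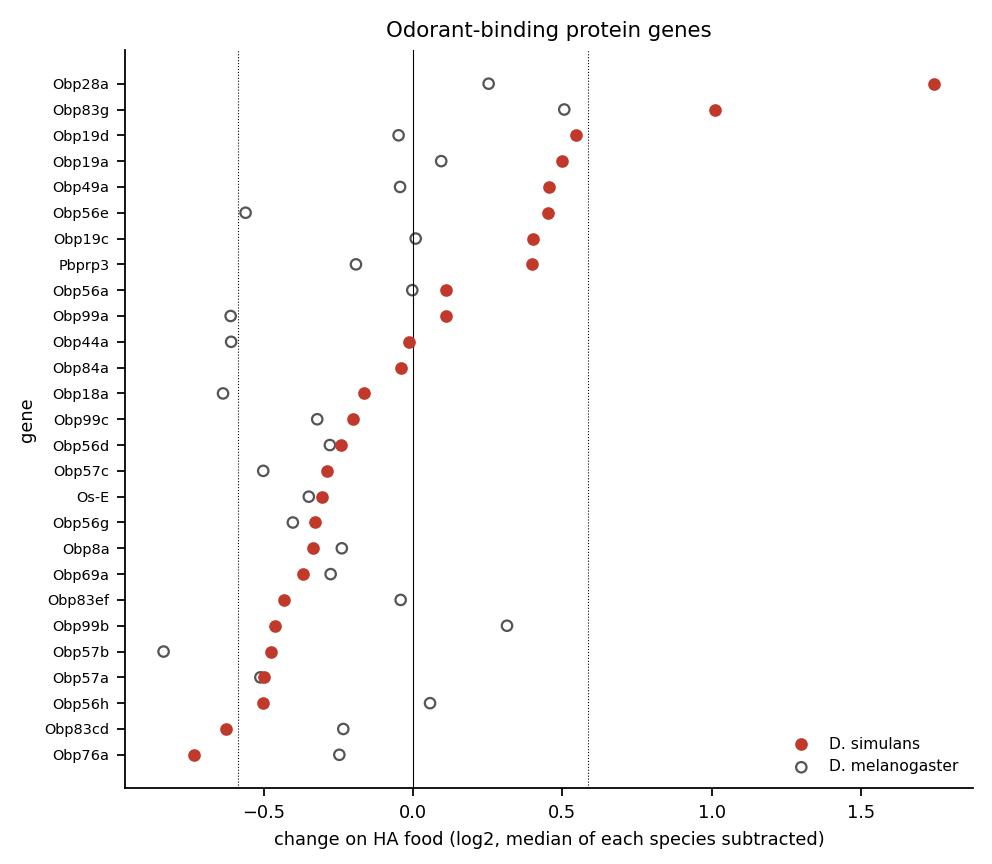
Change on HA food (log2, the median of each species subtracted) of the 27 odorant-binding protein genes of *D. simulans* that passed the minimum (filled points), with the value in *D. melanogaster* (open points) where it has one. Dotted lines mark 1.5-fold, which Obp28a and Obp83g pass upward and Obp76a and Obp83cd downward in *D. simulans*.

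Antimicrobial peptides, which the fat body secretes when the Toll or IMD pathway is activated, lay on both sides of 0 in *D. simulans*. Of 17 symbols 11 passed the minimum, with a median change of -0.04, 5 genes above 0 and 6 below. Of the 11, 1 was past 1.5-fold higher and none lower, where 1.34% of all genes were higher and 2.75% lower. The median was -0.30 at a minimum of 5 FPKM and -0.14 without subtraction of the overall median. The attacins, which act on Gram-negative bacteria, were above 0, with only AttA past 1.5-fold. AttA had 4.48 FPKM on HA food and 2.05 FPKM on control food (0.95), AttB 16.6 and 14.5 FPKM (0.29) and AttC 16.3 and 12.2 FPKM (0.49). AttA and AttB are near-identical copies, so their reads cannot be assigned with certainty. With a pseudocount of 5 FPKM the change of AttA was 0.50, within 1.5-fold, and AttA does not pass a minimum of 5 FPKM. Other peptides were lower without reaching 1.5-fold, among them Def with 456 FPKM on HA food and 600 FPKM on control food (-0.29), Dro with 26.7 and 39.7 FPKM (-0.45), and the drosomycin-like genes dro4, with 200 and 294 FPKM, and dro5, with 470 and 691 FPKM (both -0.45). Drosomycin itself (Drs), the antifungal peptide, had 920 FPKM on HA food and 826 FPKM on control food (0.26), and Mtk was level at 13.0 and 14.4 FPKM (-0.04).

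The amidases that cut peptidoglycan in the gut were the abundant recognition genes. PGRP-SC1b had 459 FPKM on HA food and 270 FPKM on control food, a change of 0.87 or 1.83-fold, and PGRP-SC2 had 874 and 734 FPKM (0.36). The receptors and sensors PGRP-SA, PGRP-SD, PGRP-LA and GNBP1 lay within 0.10 of 0. All 14 genes of Toll and IMD signalling passed the minimum and none was past 1.5-fold, where 1.34% of all genes were higher and 2.75% lower. Their median was 0.02. Its sign turns without subtraction of the overall median, with no minimum, with a pseudocount of 5 FPKM and when centred on genes of at least 20 FPKM. The inhibitor cact had 188 FPKM on HA food and 159 FPKM on control food (0.35), the kinase ird5 had 6.59 and 9.49 FPKM (-0.36), and the transcription factor Rel had 12.5 and 11.9 FPKM (0.17). Of the 13 cellular immunity symbols 5 passed the minimum, none past 1.5-fold, with Lectin-galC1 the lowest at 24.9999 FPKM on HA food and 36.4 FPKM on control food (-0.42).

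In *D. melanogaster*, where 0.866% of all genes were at least 1.5-fold higher and 4.04% lower, 10 of the 11 peptide genes with a value were below 0 and 7 were past 1.5-fold lower, with a median of -0.69. AttC had 1.82 FPKM on HA food and 16.6 FPKM on control food in *D. melanogaster*, a change of -2.64, where *D. simulans* had 0.49. For AttB the changes were 0.29 in *D. simulans* and -1.60 in *D. melanogaster*, and for PGRP-SB1 0.10 and -1.18. The species difference could not be tested. *D. sechellia* was not compared here for these genes. The study reports AttC, Def, Dro and PGRP-SB1 among the genes that species downregulated on HA food.

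Metallothioneins, cysteine-rich proteins that bind copper, zinc and cadmium, were all below 0 in *D. simulans*. Of the 4, 2 were past 1.5-fold lower, where 2.75% of all genes were. The set was drawn up after its values were seen. MtnA had 1249 FPKM on HA food and 2485 FPKM on control food, a change of -0.89 or 1.85-fold lower, and it was the most abundant of the 8 lower genes, the next being CkIIalpha at 152 FPKM on control food. MtnB had 5.76 FPKM on HA food and 10.4 FPKM on control food (-0.65), MtnC 399 and 513 FPKM (-0.26) and MtnD 5.54 and 8.64 FPKM (-0.45). In *D. melanogaster* all 4 were below 0 as well, with a median of -0.40 and none past 1.5-fold, where 4.04% of all its genes were lower. *D. sechellia* had changes of -0.69 for MtnA and 1.52 for MtnD. Of the oxidant-handling genes, Trx-2 (a thioredoxin) had 224 FPKM on HA food and 339 FPKM on control food (-0.49), while Sod, with 1296 and 1498 FPKM (-0.10), and Cat, with 175 and 187 FPKM (0.01), were close to level.

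Of the 8 digestive sugar enzymes listed, 1 was past 1.5-fold lower and none higher, where 2.75% of all genes were lower and 1.34% higher. Maltases and amylases are given apart, a division made after the values were seen. Maltases, which cut disaccharides, were all 5 below 0: Mal-A8 had 8.98 FPKM on HA food and 16.8 FPKM on control food (-0.73), Mal-A6 28.5 and 46.3 FPKM (-0.58), and Mal-A1 94.4 and 116 FPKM (-0.19). Only Mal-A8 was past 1.5-fold. The 3 amylases, which cut starch, were above 0, none past 1.5-fold: Amy-d had 304 FPKM on HA food and 279 FPKM on control food (0.23), Amy-p 61.9 and 58.2 FPKM (0.19) and Amyrel 3.16 and 2.23 FPKM (0.47). Amy-d and Amy-p are near-identical copies that may share reads. In *D. melanogaster* the maltases were below 0 too (median -0.56), and there Amy-d and Amy-p were also below 0, at -0.54 and -0.43.

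Few detoxification genes carry a symbol. Those that passed the minimum were 4 cytochrome P450 genes, 1 glutathione transferase and 3 genes of the list of esterases and epoxide hydrolases. None of them was past 1.5-fold, where 1.34% of all genes were higher and 2.75% lower. So few genes do not describe detoxification as a whole, and the study reports another P450 gene, Cyp4e1, as downregulated in *D. simulans*. Of the cytochrome P450 genes, Cyp6a26 had 23.2 FPKM on HA food and 18.04 FPKM on control food (0.45), Cyp4d1 5.32 and 8.49 FPKM (-0.48), and Cyp4d2 12.4 and 12.2 FPKM (0.13). GstD1, a glutathione transferase, was level at 586 and 633 FPKM (-0.01). The esterase Est-6 had 67.0 FPKM on HA food and 91.2 FPKM on control food (-0.33). Jheh1, an epoxide hydrolase of juvenile hormone, had 31.7 and 39.1 FPKM (-0.19).

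In central metabolism 11 of 13 symbols passed the minimum and Adhr alone was past 1.5-fold, where 2.75% of all genes were lower and 1.34% higher. Adhr had 47.3 FPKM on HA food and 99.8 FPKM on control food, a change of -0.96 or 1.94-fold lower, the lowest of any protein-coding symbol. Its upstream neighbour Adh (alcohol dehydrogenase), with which it shares transcripts in *D. melanogaster*, had 2241 FPKM on HA food and 2090 FPKM on control food (0.21). The table gives both the same locus (2L:14138834-14217803), shared by 3 genes, so the reads could have been divided between them. In *D. melanogaster* Adhr had only 1.07 FPKM on HA food and 1.27 FPKM on control food (-0.14). In *D. sechellia* it had 1.10 and 1.30 FPKM (-0.15). Zw (glucose-6-phosphate dehydrogenase, 0.27), Men (malic enzyme, 0.19), Pgd (0.02) and Tpi (0.02) lay within 0.30 of 0. Thor, the translational repressor 4E-BP that insulin signalling keeps low, had 1386 FPKM on HA food and 1015 FPKM on control food (0.55). The desaturase Desat1 had 642 and 782 FPKM (-0.18).

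Genes of egg production were abundant, as in whole females. Yp2, a yolk protein made in fat body and ovary, had 22234 FPKM on HA food and 16246 FPKM on control food (0.56), at a locus given to 3 genes. The eggshell gene dec-1 had 437 FPKM on HA food and 282 FPKM on control food, a change of 0.74 or 1.67-fold, while the late chorion gene Cp16 had 4255 and 4741 FPKM (-0.05). In *D. melanogaster* the change was -1.39 for Cp16 and 0.17 for dec-1. Of 11 germline and axis genes all passed the minimum. None was past 1.5-fold, where 1.34% of all genes were higher and 2.75% lower. Their median was -0.11, with bcd highest (11.4 FPKM on HA food and 10.01 FPKM on control food, 0.27) and Sxl lowest (4.01 and 5.73 FPKM, -0.32). The 8 genes of the small RNA list, among them hop, which encodes the JAK kinase, had a median of 0.03. This median changes sign without subtraction of the overall median and with no minimum. Dcr-1 was the highest at 7.57 and 6.15 FPKM (0.37). Male accessory gland and testis genes were near 0: of 22 symbols, 20 had at most 0.672 FPKM on either diet, the widely expressed acid phosphatase gene Acph-1 had 21.0 and 20.5 FPKM, and Acp54A1 had 38.5 FPKM on HA food and 50.1 FPKM on control food.

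The heat-inducible chaperones were above 0 in the 4 Hsp70 copies listed. Hsp70Aa had 70.3 FPKM on HA food and 43.8 FPKM on control food (0.78), Hsp70Bb 72.6 and 51.02 FPKM (0.61), Hsp70Ab 44.2 and 34.9 FPKM (0.44) and Hsp70Ba 24.5 and 19.9 FPKM (0.39). The copies are near-identical and share reads, so they are not independent, and 2 were past 1.5-fold (1.34% of all genes were). The call of Hsp70Bb is lost without subtraction of the median (0.4999), with no minimum (0.55), when centred on genes of at least 20 FPKM (0.5776) and with a pseudocount of 5 FPKM (0.54). Hsp68 had 4.73 and 3.78 FPKM (0.37), Hsp83 890 and 851 FPKM (0.17) and the constitutive Hsc70-4 1993 and 2201 FPKM (-0.04). Their regulator Hsf had 25.2 and 25.7 FPKM (0.08). In *D. melanogaster* the 4 Hsp70 copies had a median of 0.11.

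Other named genes past 1.5-fold upward belonged to no list or stood alone in theirs. Ama (3R:2480201-2484535), a secreted immunoglobulin-type adhesion protein of the nervous system, had 8.17 FPKM on HA food and 2.93 FPKM on control food, a change of 1.33 or 2.51-fold. The troponin C gene TpnC47D had 252 and 154 FPKM (0.82), whereas the other 3 genes of its list were within 1.5-fold: the troponin T gene up had 1225 and 1074 FPKM (0.30), Act88F 2143 and 2028 FPKM (0.19) and Mlc1 1442 and 1559 FPKM (-0.01). The gene amd, a relative of dopa decarboxylase that acts in cuticle formation, had 18.3 FPKM on HA food and 11.3 FPKM on control food (0.76), and Ddc itself 12.5 and 16.9 FPKM (-0.30). The gene sala had 7.24 and 4.61 FPKM (0.66). Of the 15 patterning transcription factor symbols only 4 passed the minimum, none past 1.5-fold, where 1.34% of all genes were higher and 2.75% lower. The 9 of 11 pigment and catecholamine genes kept had a median of 0.12.

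On the lower side, CkIIalpha, the catalytic subunit of casein kinase 2, had 78.6 FPKM on HA food and 152 FPKM on control food, a change of -0.84 or 1.79-fold lower. In *D. melanogaster* it had 195 FPKM on HA food and 345 FPKM on control food (-0.82). The Polycomb-group gene pho had a change of -0.47 in *D. simulans* and -0.52 in *D. melanogaster*, and Gel, which encodes an actin-severing protein, had -0.40 in *D. simulans* and -0.38 in *D. melanogaster*. The gene nvd, which encodes the oxygenase of the first step of ecdysone synthesis, had 1.08 FPKM on HA food and 2.66 FPKM on control food (-0.71), close to the FPKM minimum and at a locus given to 2 genes. Below 1.5-fold, the heterogeneous nuclear ribonucleoprotein gene Hrb27C had 48.0 and 69.5 FPKM (-0.42).

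Most genes of the table, 8867 of those kept, carry only a GD number with no name in the sources used here. The highest change among them was that of GD14511 (3L:14606145-14606662), with 22.7 FPKM on HA food and 4.41 FPKM on control food (2.24), followed by GD27851, with 74.6 and 19.9 FPKM (1.96). The lowest were those of GD10869, with 7.30 FPKM on HA food and 48.5 FPKM on control food (-2.47), and GD14545, with 1.87 and 9.76 FPKM (-1.80). Of the 120 noncoding symbols 4 passed the minimum, and mir-100 had the lowest change of any gene kept (2.60 FPKM on HA food and 24.3 FPKM on control food, -2.71), at a locus given to 5 genes. FPKM of such short features in poly-A libraries does not measure the mature microRNA.

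The change was above 0 for most genes at the top of the expression range. The 223 genes with a mean above 1000 FPKM had a median change of 0.20, and 159 of them (71.3%) were above 0. Of these genes 19 were at least 1.5-fold higher (8.52%, against 1.34% of all genes) and 2 lower (0.897%, against 2.75%). The medians in the lower classes were -0.01 under 5 FPKM, -0.01 between 5 and 20, -0.0015 between 20 and 100, and 0.03 between 100 and 1000 FPKM. Named genes of the top class include the ribosomal protein genes RpL32, with 19451 FPKM on HA food and 16266 FPKM on control food (0.36), sta, with 10442 and 8934 FPKM (0.33), and RpS18, with 10107 and 8862 FPKM (0.30). Of the cytochrome c oxidase subunits, CoVIII had 2490 FPKM on HA food and 1817 FPKM on control food (0.56) and CoIV 3398 and 2835 FPKM (0.37), but CoVa had 6327 and 7164 FPKM (-0.07). Further named genes of the class lay on both sides of 0, among them Adh (0.21), MtnA (-0.89), Sod (-0.10) and Cp16 (-0.05). Without subtraction of the median, the median of the top class was 0.09. In *D. melanogaster* the 195 genes above 1000 FPKM had a median change of -0.04 and in *D. sechellia* the 396 such genes had -0.0019; In *D. melanogaster* 1 of them was at least 1.5-fold higher (0.513%, against 0.866% of all its genes) and 10 lower (5.13%, against 4.04%). In *D. sechellia* 104 were at least 1.5-fold higher (26.3%, against 4.24%) and 16 lower (4.04%, against 2.86%), a larger share of higher genes than in *D. simulans*. FPKM scales differ between the species and the classes were not matched by gene. The study used longer reads for *D. sechellia*. It also reports rRNA genes among those upregulated by HA in *D. sechellia*, and their share of this class was not examined.

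Genes on chromosome 4, the small dot chromosome, which is largely heterochromatic and carries its own chromosomal protein in *D. melanogaster*, were lower on HA food as a group. This was noticed in the data. The 65 genes kept there had a median change of -0.27, and 56 of them (86.2%) were below 0. None was at least 1.5-fold higher and 8 were at least 1.5-fold lower (12.3%, against 2.75% of all genes). The medians of the other arms lay between -0.02 (2L) and 0.03 (X). The values on chromosome 4 ran from -1.01 to 0.15, so they overlapped those of the other arms.

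The lower level was seen in classes of low and middling expression. On chromosome 4 the median change was -0.17 in 18 genes under 5 FPKM, -0.41 in 25 genes between 5 and 20 FPKM and -0.27 in 17 genes between 20 and 100 FPKM, where genes elsewhere had -0.0064, -0.0040 and 0.00045. The 5 genes above 100 FPKM did not show it, with medians of 0.08 in 3 genes between 100 and 1000 FPKM and 0.04 in 2 genes above. Genes alone at their locus had -0.29 (53 genes) and genes that share one -0.13 (12 genes). Of 7 named genes kept, 6 were below 0: Rad23, a proteasome shuttle and DNA repair protein, had 63.3 FPKM on HA food and 103 FPKM on control food (-0.58), pho 10.8 and 16.6 FPKM (-0.47), plexA, a semaphorin receptor, 15.9 and 21.7 FPKM (-0.32), ci, the transcription factor of Hedgehog signalling, 1.498 and 2.07 FPKM (-0.19), Sox102F 2.00 and 2.67 FPKM (-0.18) and unc-13 1.83 and 2.05 FPKM (-0.0030). ATPsyn-beta, a subunit of mitochondrial ATP synthase, had 2196 and 2218 FPKM (0.09). In *D. melanogaster* the 89 genes of chromosome 4 had a median of -0.12 with 63 below 0, none at least 1.5-fold higher and 14 at least 1.5-fold lower (15.7%, against 4.04% of all its genes), although Rad23 was above 0 there (0.25). The loci of *D. sechellia* are given by scaffold, so the chromosome was not compared in that species.

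**Figure D4:**
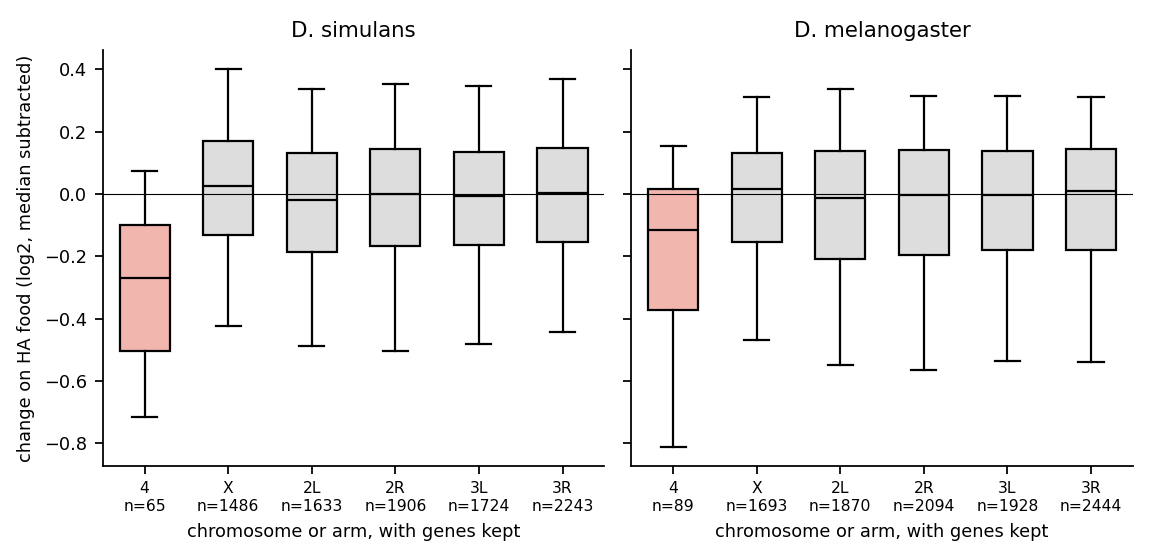
Change on HA food (log2, median of the species subtracted) by chromosome or arm in *D. simulans* and *D. melanogaster*, with the number of genes kept. Boxes span the quartiles with the median as a line, and whiskers run from the 5th to the 95th percentile of genes. The median of chromosome 4 is -0.27 in *D. simulans* and -0.12 in *D. melanogaster*, and those of the other arms lie near 0.

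Across the 279 symbols with a value in both *D. simulans* and *D. melanogaster*, each with its own controls, the changes were weakly related (Pearson r = 0.15, Spearman rho = 0.28), and 175 had the same sign. Genes are not replicates, and the values share the upstream processing. In *D. melanogaster* 148 of the 279 were below 0. Of the 8 genes lower in *D. simulans* all were below 0 in *D. melanogaster* and 2, CkIIalpha and Mal-A8, were past 1.5-fold lower there. Of the 13 genes higher in *D. simulans* with a value, 6 were above 0 in *D. melanogaster*, none was past 1.5-fold higher and 1 (AttA) was past it lower. In the other direction, 17 of the paired genes were at least 1.5-fold lower in *D. melanogaster*, and 1, Fbp2, was at least 1.5-fold higher, against 4.04% lower and 0.866% higher among all its genes. For Fbp2 *D. simulans* had 10.9 FPKM on HA food and 15.2 FPKM on control food (-0.35). For the 96 symbols shared with *D. sechellia* the changes were also weakly related (r = 0.12, rho = 0.11). The 2 sets of genes differ, so the correlations cannot be ranked.

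**Figure D5:**
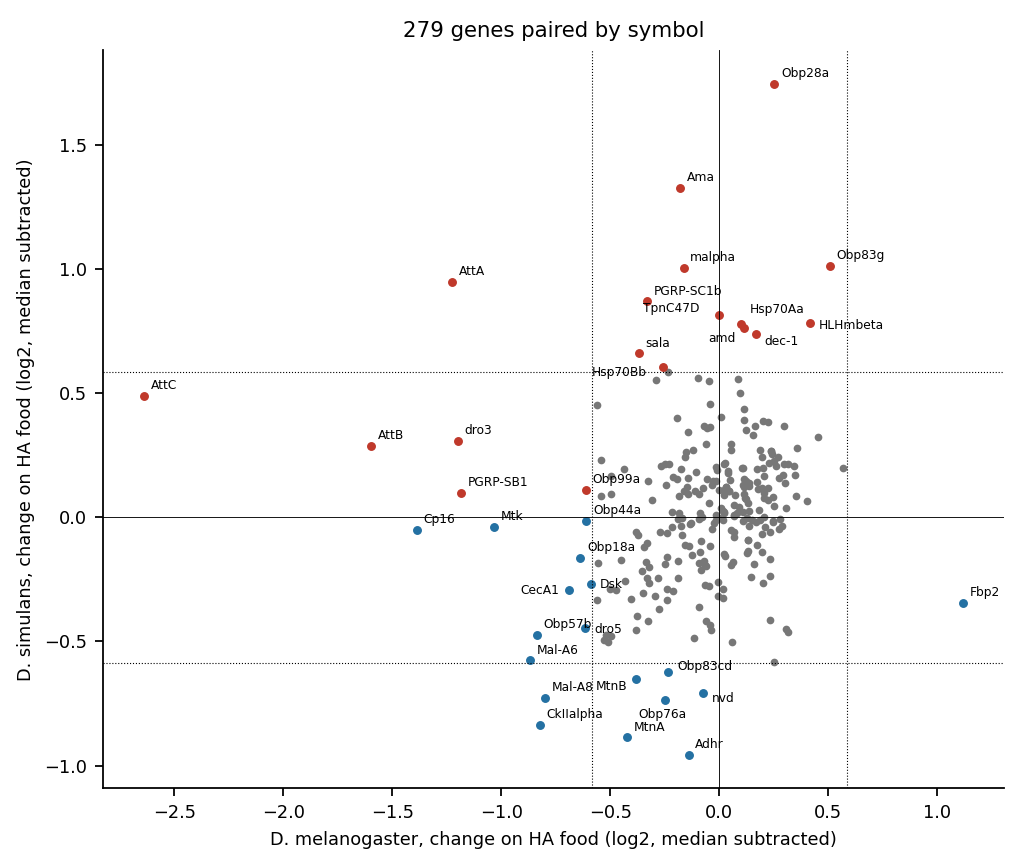
Change on HA food (log2, median of each species subtracted) in *D. simulans* against *D. melanogaster* for 279 genes paired by symbol, with dotted lines at 1.5-fold and the symbols of genes past it in at least 1 species. Obp28a, Ama and malpha lie high on the *D. simulans* axis and at 0.25, -0.18 and -0.16 on the *D. melanogaster* axis, the attacins lie to the left (AttC at -2.64), and CkIIalpha and Mal-A8 are past 1.5-fold lower on both axes.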

How the data were processed

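Whole *D. simulans* females were compared after 24 h on HA or control food, with 3 libraries per diet. Per the study's methods, poly-A selected RNA was read as 51 nt, FastQC served for quality control, alignment to Ensembl's ASM75419v3 was by Bowtie2, and levels came from Cuffdiff with geometric scaling and a correction for sequence bias. Tool versions are not given in the sources used here. The deposited table holds 1 FPKM value per gene and diet, pooled by the authors over the 3 libraries, so no interval is given. The study states read totals for the libraries, which are not used here. It also holds the authors' fold change, statistic, p and q, which were not used.

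The change was log2 of HA over control with a pseudocount of 1 FPKM, minus its median, over genes of at least 1 FPKM on both diets. It understates changes of low genes. Since the diets are 1 value each, 1.5-fold was used as a limit of size. *D. melanogaster* and *D. sechellia* were treated likewise, each in its own run. Genes were paired by symbol and, for 30 *D. melanogaster* genes, by a current name of an older symbol. Locus starts were counted from 1, as checked on *D. melanogaster*, where 9126 of 9155 loci with the annotated end then had the annotated start. Several genes share a locus for 3799 of the genes kept.

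Genes named are the 15 highest and 15 lowest protein-coding symbols, list members past 1.5-fold, the abundant members of each list, and the 2 highest and 2 lowest genes without a symbol; others were chosen after their values were seen, as were the metallothionein, cytochrome oxidase, maltase, amylase, attacin, Hsp70 and Obp57 groupings and the chromosome comparison. Members and lists were chosen with earlier results of these data known. Of the 33 lists by symbol, those for vitelline membrane, lysozymes, gut proteases, the mitochondrial genome and Osiris matched no symbol. Genes of these kinds may be among those with only a GD number. The study reports Osiris genes as downregulated on HA food in *D. simulans*. The alternatives were pseudocounts of 0.1 and 5 FPKM, minimums of 5 FPKM and none, no centring, centring on genes of at least 20 FPKM, 2-fold, and removal of noncoding genes. With no minimum, genes at 0 on both diets were still left out. The calculation was tested on simulated data. Python 3.11.15, NumPy 2.4.6, pandas 2.3.3 and matplotlib 3.10.9 were used.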

Additional observations from a re-analysis of the deposited data

Results flagged for a closer look

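AttA was past 1.5-fold in opposite directions in *D. simulans* and *D. melanogaster*, with a change of 0.95 in *D. simulans* and -1.23 in *D. melanogaster*, a difference of 2.17 on the log2 scale. Each species has 1 pooled value per diet, so the difference was not tested. With a pseudocount of 5 FPKM the *D. simulans* change was 0.50, within 1.5-fold, and AttA does not pass a minimum of 5 FPKM there. AttA had 4.48 FPKM on HA food and 2.05 FPKM on control food in *D. simulans*, and 5.12 FPKM on HA food and 13.3 FPKM on control food in *D. melanogaster*.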

How the results depend on the processing

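No paired analysis was possible because the values are pooled over the 3 libraries of each diet, and for the same reason no library could be left out. The main counts were 123 higher and 253 lower genes. With a pseudocount of 5 FPKM they were 77 and 134, without centring 79 and 464, and at 2-fold 23 and 27. With no minimum FPKM the lower genes numbered 391. The remaining alternatives stayed within 1.5 times the main counts. All 30 genes named for the largest changes kept their direction under every alternative in which they passed the minimum, and of the 23 past 1.5-fold, 15 were still past it with a pseudocount of 5 FPKM and 14 with a minimum of 5 FPKM, which 21 of the 30 passed. The calls lost with the pseudocount of 5 FPKM were those of AttA, Hsp70Bb, Mal-A8, MtnB, Obp76a, Obp83cd, nvd and sala. At the minimum of 5 FPKM, Ama, AttA, HLHmgamma, m4, malpha, Obp76a, Obp83cd, nvd and sala were left out. Without centring, Hsp70Bb and sala were within 1.5-fold. The median of the noncoding RNA list turned from -1.28 to 0.12 with no minimum. Of 19 list medians, 5 changed sign without centring and 5 with no minimum. With a pseudocount of 5 FPKM 3 changed sign, and when centred on genes of at least 20 FPKM 3 did. With a pseudocount of 0.1 FPKM 1 changed sign, as did 1 of 16 at a minimum of 5 FPKM. The cause was not tested. Under alternatives chosen after seeing the data, the median of chromosome 4 lay between -0.37 and -0.18 and that of genes above 1000 FPKM between 0.09 and 0.21. The files limit every statement to pooled values with an unknown spread.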
